A study of Mus musculus with 12 samples.

Results

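The IgG receptor genes of adipose vascular anomalies were examined in whole-tissue transcriptomes of C57BL/6 mice. The 6 genes were chosen by symbol as the mouse Fc gamma receptors and the chain they signal through (Fcgr1, Fcgr2b, Fcgr3, Fcgr4 and Fcer1g) together with the neonatal receptor Fcgrt, out of 32774 genes in the table, and all 6 were measured above the filter on low values. The anomalies arose in mice of genotype VEC-Cre;SB Transposase; onc3, in which the VE-cadherin promoter drives Cre in endothelium and a Sleeping Beauty transposase mobilizes the onc3 transposon. The normal adipose tissue came from SB Transposase; onc3 mice, which carry the same transposase and transposon without Cre. The 7 anomaly animals gave 8 libraries, as M566 contributed 2 pieces (leg and arm) that were averaged, and each of the 4 normal animals gave 1. The series design text counts 8 anomaly animals, whereas the sample titles name 7, and the titles were followed. Of the anomaly animals 5 carry subQ in the title and 2 carry fat, while all 4 normal samples carry fat. Ages are not given in the sources used here.

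In mice the activating receptors FcγRI, FcγRIII and FcγRIV, encoded by Fcgr1, Fcgr3 and Fcgr4, bind IgG on macrophages, monocytes and other myeloid cells and pair with the common γ chain encoded by Fcer1g. The γ chain carries an activation motif (ITAM) that Src-family kinases phosphorylate and that then docks the kinase SYK. FcγRIIB, encoded by Fcgr2b, carries an inhibitory motif instead and recruits the lipid phosphatase SHIP1. Fcgrt encodes the heavy chain of the neonatal Fc receptor FcRn, which pairs with β2-microglobulin and returns internalized IgG and albumin to the circulation, in endothelium and in macrophages among other cells.

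Of the members, 5 were higher in the anomalies past the test, against 15.3% of all 12955 genes tested (23.2% were lower), or 35.2% when the libraries were scaled by their totals alone, and Fcgrt was not past it. Values are normalized log2 CPM as deposited, and the test is limma's moderated test over animals with Benjamini-Hochberg adjustment across all genes tested and a threshold of 0.05. Log2 fold changes are anomaly over normal. The labels tie each library to a named animal, so the spread below is between animals. In whole tissue, fewer cells of a type and less RNA per cell cannot be told apart.

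Depth, as reads recovered from the deposited values, was 11749969 to 29763059 per anomaly library apart from M580, which had 953994, so that 1 of its reads is worth 0.742 CPM. The normal libraries had 10337258 to 33980694 reads. The lowest count of any member in any library was 60 reads (Fcgr1 in M580), so no member rested on a handful of reads. The column of anomaly animal M605 has a control name in one header line of the table and an anomaly name in the other header line and in the labels, and it was used as an anomaly. The 5 calls held without M605 and without M580.

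The genes of Fcgr2b, Fcgr4, Fcgr3 and Fcer1g lie in this order on chromosome 1 (GENCODE vM21 on GRCm38). Fcgr2b spans chr1:170958617-170976547 on the minus strand, Fcgr4 spans chr1:171018920-171029761 on the plus strand, Fcgr3 spans chr1:171051174-171064935 on the minus strand and Fcer1g spans chr1:171229572-171234365 on the minus strand. The gaps between neighbours are 42372, 21412 and 164636 bp. Fcgr1 lies at chr3:96282909-96293969 and Fcgrt at chr7:45092990-45103851, both on the minus strand.

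Fcgr2b and Fcgr3 share coding sequence that short reads cannot tell apart, which bears on how far their counts are separate. Their longest identical coding stretch is 129 bases, whereas the other pairs of members share no more than 14 bases. In the GENCODE coding sequences, read in the direction of transcription, the stretch stands in capitals with 15 bases on either side in lower case, and each run with these flanks covers coding positions 263 to 421 of Fcgr2b or 248 to 406 of Fcgr3.
Fcgr2b: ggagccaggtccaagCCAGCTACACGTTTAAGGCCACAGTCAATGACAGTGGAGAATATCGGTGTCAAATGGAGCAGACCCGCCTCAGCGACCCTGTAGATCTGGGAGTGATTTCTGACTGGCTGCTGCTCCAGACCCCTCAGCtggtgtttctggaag
Fcgr3: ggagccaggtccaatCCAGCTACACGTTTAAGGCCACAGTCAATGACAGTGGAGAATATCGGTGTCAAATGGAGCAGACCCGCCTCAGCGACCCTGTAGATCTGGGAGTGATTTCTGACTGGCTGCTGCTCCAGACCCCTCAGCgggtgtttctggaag
Of all 50-base words of the Fcgr3 transcripts 10.2% also occur in Fcgr2b, and 4.48% of those of Fcgr2b occur in Fcgr3. Of all 100-base words of Fcgr3, 2.70% occur in Fcgr2b. Counting every other gene, 10.7% of the 50-base words and 6.49% of the 100-base words of Fcgr2b occur elsewhere, Cplx2, Rab3c and Gm38204 included. Fcgr1, Fcgr4, Fcer1g and Fcgrt share no 50-base word with another gene. The column names end in ReadsPerGene.out, and the processing notes name STAR. The read length and the counting rule for such reads are not spelled out in the sources used here, so the levels of Fcgr2b and Fcgr3 are uncertain. The kit does not keep strand. The gene Gm38204, antisense to Fcgr2b, had 0 to 3 reads in the anomalies and 0 in normal tissue, and Gm45669, antisense to Fcgrt, had 0 to 5 and 1 to 3.

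The proximal promoters of the activating receptor genes are shown because each held the first of the words marked below (RefSeq, GRCm38.p6, from 120 bases before to 10 bases after the annotated start, 5′ to 3′ on the gene's strand). Capitals mark matches to GAGGAA, the core of sites for the myeloid factor PU.1 (written TTCCTC on the other strand), to TTCNNNGAA, the GAS element of interferon gamma signalling, and to GAAANNGAAA, a pair of half-sites of the interferon-stimulated response element.
Fcgr1, chr3:96293960-96294089, minus strand: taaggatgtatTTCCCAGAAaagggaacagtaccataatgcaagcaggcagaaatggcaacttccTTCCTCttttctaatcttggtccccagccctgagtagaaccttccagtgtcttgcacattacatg
Fcgr3, chr1:171059394-171059523, minus strand: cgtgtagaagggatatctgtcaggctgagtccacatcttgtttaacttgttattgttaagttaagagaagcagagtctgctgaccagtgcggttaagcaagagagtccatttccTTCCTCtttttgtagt
Fcgr4, chr1:171018806-171018935, plus strand: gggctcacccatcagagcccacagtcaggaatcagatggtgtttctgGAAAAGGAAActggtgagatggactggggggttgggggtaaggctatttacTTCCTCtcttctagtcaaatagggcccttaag
By this choice each of these promoters held the PU.1 core. That of Fcgr1 also held a GAS match and that of Fcgr4 also held the response element pair. No 2 of these matches overlap. In the full window, from 250 bases before to 50 after the start, both strands were searched in all 6 members, and the PU.1 core was found in 3, GAS in 1 and the response element pair in 1. A C/EBP word (TTGCNNAA) was found in 2, Fcgr3 and Fcgrt. Fcgr2b and Fcer1g, which rose in the anomalies as well, held no match to any of these words. Among all 32851 promoters of the table, 28.3% held the PU.1 core, 8.30% GAS, 3.44% the response element pair and 10.8% the C/EBP word. A match is a run of letters and not evidence that a factor binds.

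Fcgr4, the receptor for mouse IgG2a and IgG2b found on monocytes, macrophages and neutrophils, had the highest fold change of the members. It ran from 3.39 to 7.26 log2 CPM in the anomalies, with a median of 5.76, against 3.02, 1.49, 1.54 and 2.24 log2 CPM in normal animals F539, M5, M602 and M2. All 7 anomaly animals lay above all 4 normal animals, as they did for 8.3% of all genes tested. The means were 5.64 ± 1.33 log2 CPM in anomalies and 2.07 ± 0.72 log2 CPM in normal tissue (SD, n = 7 and 4). The log2 fold change of 3.57 ± 0.66 (SE) corresponds to 11.8-fold, with a 95% interval of 2.12 to 5.01 and a limma adjusted p of 0.00268. Only 55 genes, 0.425% of those tested, were both past the threshold and at least as far up.

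Fcgr1 encodes the high-affinity receptor, a classical macrophage surface marker (CD64). It ran from 3.34 to 5.98 log2 CPM in the anomalies, with a median of 5.48, against 3.17, 2.61, 1.95 and 2.82 log2 CPM in F539, M5, M602 and M2. Again the groups did not overlap, although anomaly animal M566 (3.34) stood just above normal animal F539 (3.17). The log2 fold change was 2.61 ± 0.46 (SE), or 6.12-fold, with a 95% interval of 1.60 to 3.63 and a limma adjusted p of 0.00228.

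Fcgr3 encodes the low-affinity activating receptor of macrophages, mast cells, neutrophils and natural killer cells. It ran from 4.97 to 8.10 log2 CPM in the anomalies, with a median of 7.14, against 4.67, 5.57, 4.88 and 5.51 log2 CPM in F539, M5, M602 and M2. Of the anomaly animals 6 lay above all normal animals, and M566, at 4.97, lay among them. The log2 fold change was 1.73 ± 0.52 (SE), or 3.33-fold, with a 95% interval of 0.60 to 2.87 and a limma adjusted p of 0.0219. This call did not hold in every setting. The limma adjusted p was 0.0539 without normal animal F539 (log2 fold change 1.57), 0.0688 without M602 (1.64), and 0.0620 with the pieces of M566 as separate replicates (1.49).

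Fcer1g, the shared signaling chain, was higher in every anomaly animal than in any normal one. It ran from 5.58 to 7.98 log2 CPM in the anomalies, with a median of 7.14, against 4.81, 5.25, 4.57 and 5.15 log2 CPM in F539, M5, M602 and M2. Its means were 7.01 ± 0.74 log2 CPM in anomalies and 4.94 ± 0.31 log2 CPM in normal tissue (SD, n = 7 and 4). The log2 fold change was 2.06 ± 0.37 (SE), or 4.18-fold, with a 95% interval of 1.26 to 2.87 and a limma adjusted p of 0.00229.

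Fcgr2b, the inhibitory receptor, rose as well. It ran from 5.86 to 8.22 log2 CPM in the anomalies, with a median of 6.55, against 5.13, 5.90, 5.17 and 5.25 log2 CPM in F539, M5, M602 and M2. Of the anomaly animals 6 lay above all normal animals, and M566 (5.86) lay just under M5 (5.90). The log2 fold change was 1.63 ± 0.45 (SE), or 3.09-fold, with a 95% interval of 0.64 to 2.61 and a limma adjusted p of 0.0157. Without normal animal M602 the log2 fold change was 1.56 and the adjusted p was 0.0522.

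Fcgrt had lower values in the anomalies on average and was not past the threshold. It ran from 6.26 to 8.41 log2 CPM in the anomalies, with a median of 7.52, against 7.81, 8.53, 8.67 and 8.82 log2 CPM in F539, M5, M602 and M2. Of the anomaly animals 4 lay below all normal animals and the other 3, 18f, F578 and M278, lay among them. The log2 fold change was -0.96 ± 0.41 (SE), with a 95% interval of -1.86 to -0.07 and a limma adjusted p of 0.0815. Without 18f it was -1.12 (adjusted p = 0.0388). With scaling by library totals (12.1% of genes lower) it was -0.54 (adjusted p = 0.250).

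**Figure D1:**
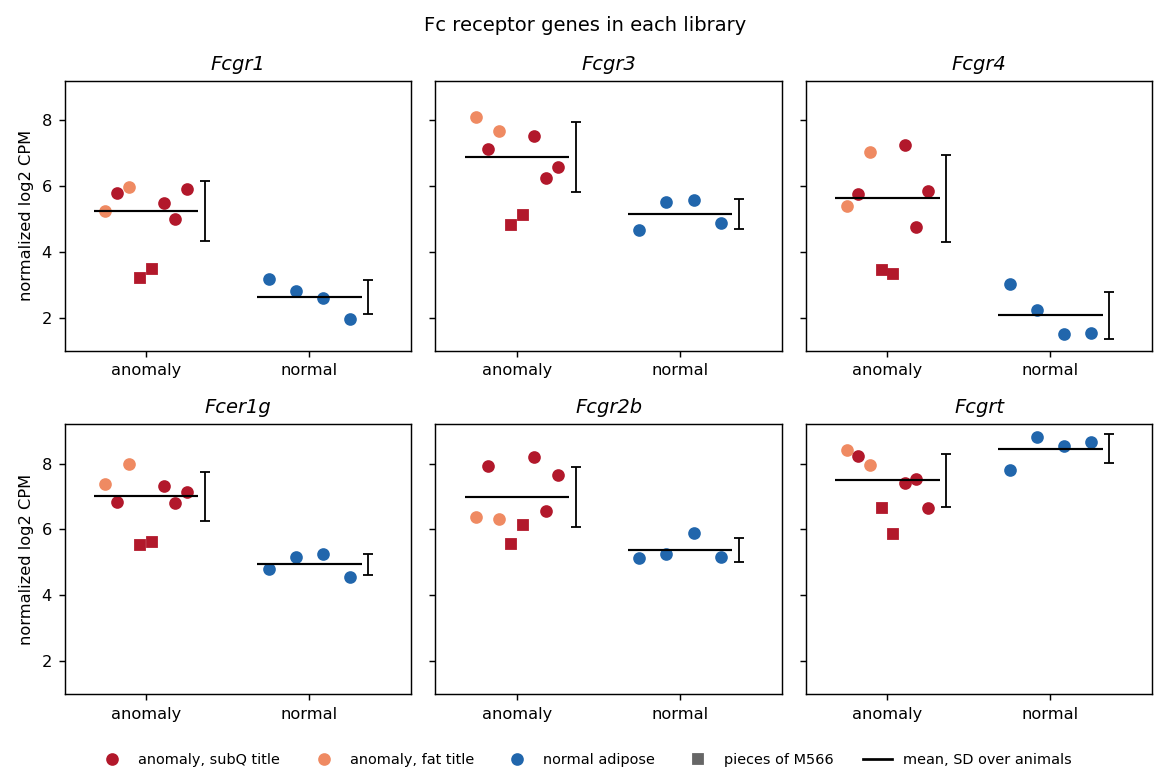
Normalized log2 CPM (vertical axis) of the 6 genes in each library, anomalies left of normal tissue, with color for the site in the title, squares for the pieces of M566, and a bar and whisker for the mean and SD over 7 anomaly and 4 normal animals. The anomaly points of Fcgr1, Fcgr4 and Fcer1g lie above all normal points, those of Fcgr2b and Fcgr3 overlap them through M566, and those of Fcgrt reach below them.

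M566 was the lowest anomaly animal for each of the 6 genes, Fcgrt included. Its leg and arm pieces stood at 3.47 and 3.20 log2 CPM in Fcgr1, at 5.11 and 4.82 in Fcgr3, at 3.32 and 3.45 in Fcgr4 and at 5.62 and 5.53 in Fcer1g. Fcgr2b had 6.15 log2 CPM in the leg piece and 5.57 in the arm piece, and Fcgrt had 5.87 and 6.65. The highest anomaly animal varied, with M580 highest for Fcgr2b and Fcgr4, M278 for Fcgr1 and Fcer1g, and 18f for Fcgr3 and Fcgrt.

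Levels were compared between genes per kilobase of exon. In the anomalies Fcer1g was the most abundant member at 163 ± 72.0 CPM per kb, followed by Fcgrt at 96.8 ± 46.4, Fcgr3 at 83.0 ± 48.3, Fcgr4 at 54.3 ± 42.8, Fcgr2b at 26.2 ± 16.4 and Fcgr1 at 16.8 ± 7.22 CPM per kb (SD, n = 7). In normal tissue Fcgrt led at 173 ± 46.8 CPM per kb, followed by Fcer1g at 35.8 ± 7.53, Fcgr3 at 21.3 ± 6.42, Fcgr2b at 7.29 ± 2.03, Fcgr4 at 3.68 ± 1.97 and Fcgr1 at 2.51 ± 0.821 CPM per kb (SD, n = 4). Fcer1g stood above Fcgrt in the anomaly means and below it in the normal means, and Fcgr4 stood above Fcgr2b in the anomaly means and below it in the normal means. In the anomalies each gene differed from the next in this order by less than the SD of the more abundant gene. In normal tissue this held for Fcgr4 and Fcgr1, and the other neighbours lay farther apart than that SD. The values depend on the length used. Per kilobase of the longest coding transcript Fcgr2b stood at 42.7 ± 26.8 CPM in anomalies and 11.9 ± 3.32 CPM in normal tissue, with Fcgr1 and Fcgr4 unchanged, and the order of the means was the same in both groups.

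A further question was whether the change held at either site named in the titles. In a fit with 3 groups, both contrasts with normal tissue use the same normal animals, and all of these are titled fat. Against normal tissue, 5 members rose in the subQ-titled anomalies, where 16.1% of all genes rose, and Fcgrt fell, as did 26% of all genes. In the fat-titled anomalies 4 members rose, where 6.76% of all genes rose, and Fcgr2b and Fcgrt were not past the threshold.

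The log2 fold changes of Fcgr4 were 3.33 in subQ-titled anomalies (limma adjusted p = 0.00502) and 4.14 in fat-titled anomalies (0.0225). Those of Fcgr1 were 2.47 (0.00406) and 2.98 (0.0215), and those of Fcer1g were 1.79 (0.00275) and 2.74 (0.0104). Fcgr3 stood at 1.33 in subQ-titled (0.0392) and at 2.73 in fat-titled anomalies (0.0215). Fcgr2b ran the other way, at 1.88 in subQ-titled (0.00845) and at 0.99 in fat-titled anomalies (0.281). Fcgrt stood at -1.24 in subQ-titled (0.0255) and at -0.27 in fat-titled anomalies (0.759). The difference between the sites was itself tested with limma, and no member passed (2 did at an unadjusted p under 0.05, and 0 by limma-voom). It was -1.40 for Fcgr3 (95% interval -2.67 to -0.13, adjusted p = 0.306), 0.89 for Fcgr2b (-0.35 to 2.13, 0.467), -0.95 for Fcer1g (-1.87 to -0.03, 0.327) and -0.97 for Fcgrt (-2.03 to 0.09, 0.364). For Fcgr1 it was -0.51 (-1.90 to 0.88, 0.710) and for Fcgr4 -0.81 (-2.77 to 1.15, 0.676). With 2 fat-titled animals that contrast called 5 genes in all, 0.0386% of those tested.

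These site contrasts were fragile. Without M278, 1 of the 2 fat-titled animals, none of the 4 calls in the fat-titled anomalies held, with limma adjusted p from 0.0692 for Fcer1g to 0.174 for Fcgr4. Without 18f, the other, Fcgr3 was at 2.52 (0.0797). Without M602 the calls of Fcgr1 (0.0606), Fcgr3 (0.0607) and Fcgr4 (0.0638) in fat-titled anomalies were lost, and without M2 so was that of Fcgr4 (0.0517). In the subQ-titled anomalies the call of Fcgr3 was lost without any one of M580, F578, M610, M605 or the 4 normal animals, with adjusted p from 0.0522 to 0.102. There the call of Fcgrt was lost without M610, M5, M602 or M2, with adjusted p from 0.0548 to 0.0742.

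**Figure D2:**
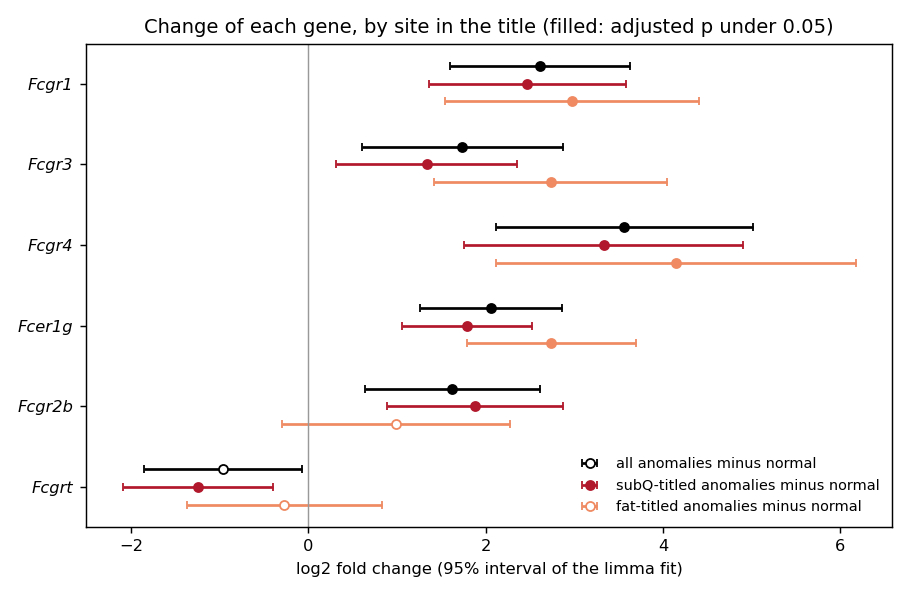
Log2 fold change against normal tissue (horizontal axis) with its 95% interval for each gene, in all anomalies (black), subQ-titled anomalies (dark red, 5 animals) and fat-titled anomalies (light red, 2 animals), filled where the limma adjusted p was under 0.05. Fcgr4 lies farthest to the right in all 3 contrasts, and Fcgrt is the only gene left of 0.

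The balance between receptors was read as log2 ratios of CPM within an animal, which are differences and not levels. Relative to Fcer1g, Fcgr4 was 1.50 higher in the anomalies (95% interval 0.49 to 2.51), with a limma adjusted p of 0.00618, and only 0.34% of genes passed in that direction. The ratio averaged -1.37 ± 0.76 in anomalies and -2.87 ± 0.81 in normal tissue (SD, n = 7 and 4), and 4 of 7 anomaly animals lay above all normal animals. An exact two-sided permutation test over the 330 splits of the animals gave p = 0.0242, unadjusted, for this ratio as 1 of 11 tested. Since 82.8% of genes were lower relative to Fcer1g, an adjusted p in that fit lies close to its raw p. The standard errors of the members in that fit ran only from 0.44 to 0.50, since limma pools the spread over genes. Its intervals and p-values thus reflect mostly the pooled spread, while the permutation p uses the values of the ratio itself. Without normal animal M5 the difference was 1.21 and its limma adjusted p 0.0466.

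The other activating receptors and Fcgr2b did not differ from Fcer1g past the threshold. The difference was 0.55 for Fcgr1 (95% interval -0.38 to 1.48, limma adjusted p = 0.265), -0.33 for Fcgr3 (-1.21 to 0.56, 0.487) and -0.44 for Fcgr2b (-1.42 to 0.55, 0.406). Their exact permutation p-values were 0.0848, 0.218 and 0.473. Fcgrt lay 3.03 below its normal ratio to Fcer1g, with a mean of 0.49 ± 0.65 in anomaly animals and 3.51 ± 0.48 in normal animals (SD, n = 7 and 4), and the groups did not overlap (exact permutation p = 0.00606). Most genes did the same, as 63.2% had all 7 anomaly animals below all normal animals in their ratio to Fcer1g.

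The members were also set against the mean of Adgre1, Cd68 and Csf1r, which encode F4/80, a lysosomal glycoprotein and the CSF1 receptor of macrophages. Relative to it, Fcgr4 was 2.14 higher (95% interval 0.82 to 3.46, limma adjusted p = 0.00690, exact permutation p = 0.0121), with 6 of 7 anomaly animals above all normal animals and 0.78% of genes higher past the threshold. Without M5 the difference was 1.65 (adjusted p = 0.0424). Fcgr1 was 1.19 higher (-0.13 to 2.51, 0.114, exact permutation p = 0.0545), Fcer1g 0.64 (-0.62 to 1.90, 0.379), Fcgr3 0.31 (-0.95 to 1.57, 0.680) and Fcgr2b 0.20 (-1.05 to 1.46, 0.790). Without M566 the call for Fcgr1 was gained, with a limma adjusted p of 0.0311. Fcgrt was lower by this measure, by -2.39 (-3.62 to -1.16, 0.00119), as were 51.4% of genes. The standard errors of the members ran only from 0.63 to 0.67 in this fit. The SD of the ratio in anomalies ran from 0.40 for Fcgr3 to 1.32 for Fcgr2b. These limma intervals and p-values therefore do not measure the spread of each gene between animals.

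The inhibitory receptor was set against each activating receptor within an animal. For Fcgr2b over Fcgr3 the log2 ratio was 0.31 to 1.07 in the 5 subQ-titled anomaly animals, -1.71 and -1.36 in the fat-titled animals 18f and M278, and -0.26 to 0.46 in normal animals. Both fat-titled anomalies lay below every normal animal, and 4 of the subQ-titled ones lay above every normal animal while M605 lay among them. This ratio was picked after its values were seen and was not tested. Whether reads that fit both of these genes enter it is not stated. For Fcgr2b over Fcgr4 the ratio averaged 1.35 ± 1.07 in anomalies and 3.29 ± 0.97 in normal tissue, and for Fcgr2b over Fcgr1 it averaged 1.74 ± 0.83 and 2.73 ± 0.64 (SD, n = 7 and 4, not tested). Of the anomaly animals 5 lay below all normal animals in the ratio to Fcgr4 and 4 in the ratio to Fcgr1. The sites overlapped in the ratio to Fcgr4, where fat-titled 18f stood at 1.00 and subQ-titled M580 at 0.954.

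**Figure D3:**
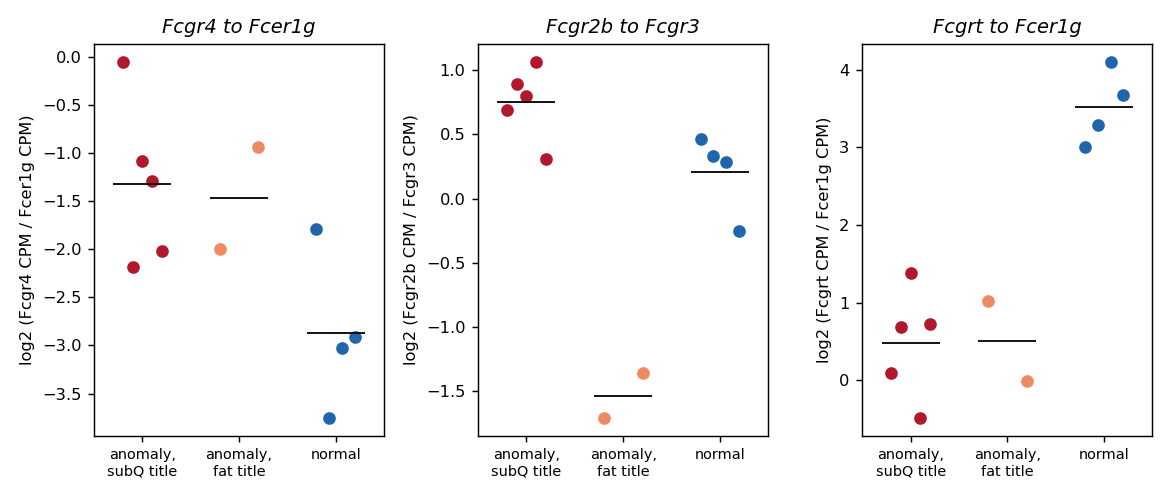
Log2 ratio of CPM within each animal (vertical axes, scaled separately) for Fcgr4 to Fcer1g, Fcgr2b to Fcgr3 and Fcgrt to Fcer1g, with subQ-titled anomalies, fat-titled anomalies and normal tissue from left to right and a bar at each mean. The fat-titled anomalies sit at -1.71 and -1.36 in the middle panel, below all other animals, and all anomaly animals sit below the normal ones in the right panel.

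How the genes vary together was described by Pearson's r of each animal's deviation from its group mean over 11 animals, with no test, since values of an animal share a library, a piece of tissue and a scaling factor. Fcgr3 and Fcer1g were closest (r = 0.89), followed by Fcgr1 and Fcgr4 (0.84), Fcgr1 and Fcer1g (0.82) and Fcgr3 and Fcgrt (0.81). Fcgr2b was least like the others, with r between 0.13 for Fcgrt and 0.53 for Fcgr1. Without the shallow library of M580, r between Fcgr1 and Fcgr4 was 0.92, and r between Fcgr2b and Fcgr4 was 0.28 in place of 0.48.

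**Figure D4:**
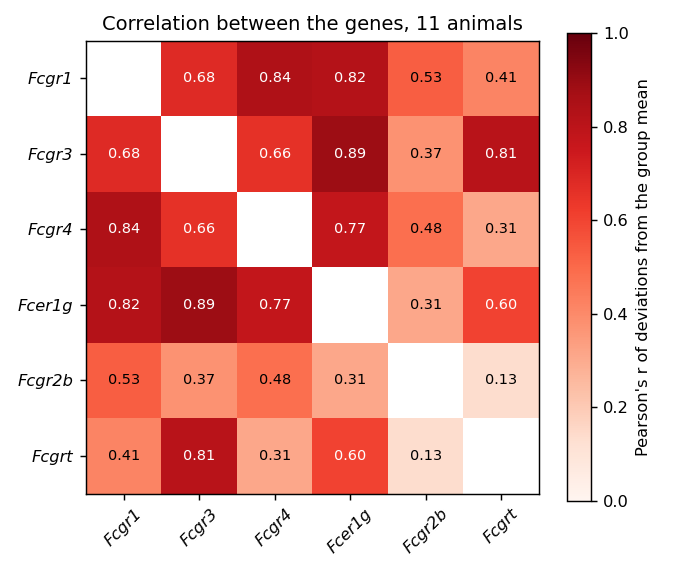
Pearson's r between pairs of the 6 genes (both axes), computed from deviations from the group mean over 11 animals, with darker red for higher r. Fcgr1, Fcgr3, Fcgr4 and Fcer1g form a dark block between 0.66 and 0.89, and the row of Fcgr2b stays between 0.13 and 0.53.

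Among all genes tested, those most like each member by this r were named. Fcer1g was followed most closely by Hcls1, an adaptor of blood cells (r = 0.99), Arhgap30 (0.98), Mpeg1, the gene of the pore-forming macrophage protein perforin 2 (0.98), Lrrc25 (0.97) and Cybb, the gene of a phagocyte NADPH oxidase subunit (0.96). Fcgr3 was followed by Tlr7, an endosomal RNA sensor (0.99), Tbxas1, thromboxane synthase (0.97), Aoah, a lipopolysaccharide-degrading enzyme (0.97), Cfp, properdin (0.96), and Alox5ap, an activator of leukotriene synthesis (0.96). Fcgr4 was followed by Gpr65, an acid-sensing receptor (0.96), Clec4n, which encodes dectin 2 (0.93), Sla (0.92) and Klra2 (0.92). Fcgr1 was followed by Inpp5d, which encodes SHIP1 (0.96), Cyp1b1 (0.96), the adaptor gene Fyb (0.95) and Cmtm7 (0.94).

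Fcgr2b was followed by the protease gene Adamts1 (r = 0.90), the sialic acid receptor gene Cd33 (0.88), Inhbb, an inhibin and activin subunit (0.88), Glipr2 (0.87) and Flt4, the receptor of lymphatic endothelium for VEGF-C (0.86). Fcgrt was followed by the adrenoceptor gene Adra1d (0.96), complement C4b (0.96), Dzank1 (0.96), Pttg1ip (0.95) and the transcription factor gene Klf9 (0.94). All 5 genes nearest to Fcgrt had negative log2 fold changes in the anomalies, from -2.39 for Adra1d to -0.67 for Pttg1ip.

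Downstream of the receptors, 19 of 20 genes of ITAM kinases and adaptors rose and none fell, where 15.3% of all genes rose and 23.2% fell. Their median log2 fold change was 1.74, against a median of -0.10 over all genes tested. The count was 20 with library totals (where 35.2% of all genes were higher), 18 with limma-voom (15.9%) and 19 without M580 (15.1%). It was 14 in the fat-titled anomalies alone (6.45%) and 18 in the subQ-titled anomalies alone (16.4%). Fgr, a Src-family kinase of myeloid cells, rose by 2.63 ± 0.54 (SE, limma adjusted p = 0.00428). Syk, the kinase that binds the phosphorylated γ chain, averaged 7.06 ± 0.79 log2 CPM in anomalies and 5.56 ± 0.43 log2 CPM in normal tissue (SD, n = 7 and 4). Its log2 fold change was 1.50 ± 0.40 (SE, adjusted p = 0.0135), and 1.37 without M602 (0.0518). The adaptor gene Lcp2, which encodes SLP-76, rose by 2.59 ± 0.45 (0.00215) and the guanine nucleotide exchange factor gene Vav1 by 2.29 ± 0.39 (0.00192). Plcg2, a phospholipase, rose by 1.91 ± 0.33 (0.00215) and Prkcd, a protein kinase C, by 1.52 ± 0.19 (0.000836). All 7 anomaly animals lay above all normal animals in Fgr, Lcp2, Vav1 and Prkcd, as they did for 8.3% of all genes. The exception was Pik3cg, a phosphoinositide kinase, with a log2 fold change of 1.11 ± 0.42 (0.0574). Lyn, at 1.21 ± 0.37 (0.0247), lost its call without F539 (0.0608), M602 (0.0624) or M2 (0.0680).

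The inhibitory side was mixed, with 5 of 9 phosphatases and adaptors higher (15.3% of all genes were), 1 lower (23.2%) and a median log2 fold change of 0.55. Inpp5d, the SHIP1 gene, rose by 2.11 ± 0.31 (limma adjusted p = 0.00117), Ptpn6, the SHP-1 phosphatase gene, by 2.18 ± 0.32 (0.00119) and Dok3, an adaptor of immune receptors, by 2.56 ± 0.27 (0.000569). Csk, the kinase that restrains the Src family, rose by 0.55 ± 0.14 (0.0112). Dok1 rose by 0.74 ± 0.27 (0.0488), a call that was lost in 18 of its 24 alternatives. Ptpn11, which encodes the broadly expressed phosphatase SHP-2, fell by 1.48, with 7.23 ± 0.31 log2 CPM in anomalies and 8.70 ± 0.61 log2 CPM in normal tissue (SD, n = 7 and 4, adjusted p = 0.00229), and all 7 anomaly animals lay below all normal animals, as they did for 12.4% of all genes. The log2 ratio of Inpp5d to Syk averaged -0.30 ± 0.43 in anomalies and -0.92 ± 0.29 in normal tissue, and was not tested.

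A list of 12 genes held other receptors and adaptors built around the γ chain or the related chain DAP12, and the inhibitory receptor gene Pirb. Of these, 11 were among the genes measured, 7 passed the filter and all 7 rose (median 2.61), where 15.3% of all genes rose. Only 5 were past the threshold with limma-voom, where Clec4d (adjusted p = 0.0657) and Clec4e (0.0621) were lost, and 5 in the subQ-titled anomalies alone. The receptor genes Clec4d, Clec4n and Clec4e, C-type lectins for fungal and mycobacterial glycolipids and mannans, rose by 3.57 ± 0.88 (limma adjusted p = 0.00986), 3.43 ± 0.47 (0.00105) and 3.27 ± 0.97 (0.0216). Clec5a rose by 2.18 ± 0.40 (0.00249), Pirb, an inhibitory receptor related to the γ-chain partner PIR-A, by 1.86 ± 0.45 (0.00851), and Tyrobp, which encodes DAP12 itself, by 2.01 ± 0.52 (0.0116). Trem2, a lipid-sensing receptor of macrophages, rose by 2.61 ± 0.80 (0.0255) and lost its call without F539 (2.13, 0.0701) or M602 (2.31, 0.0878). Clec4e lost its call without M5 (0.0639) or M602 (0.0744). Among those under the filter, Gp6, the platelet collagen receptor, had 0 to 16 reads in anomaly libraries and 0 to 5 in normal libraries. Members scarce in normal tissue can pass the filter through their anomaly values, so this count does not describe all 12 genes.

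**Figure D5:**
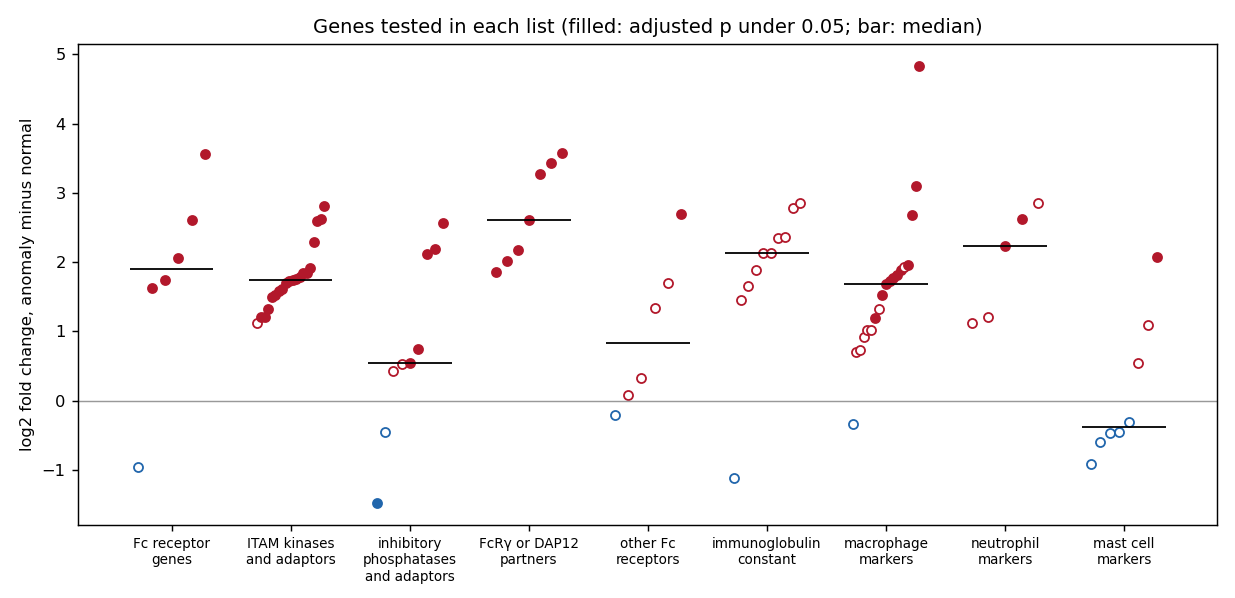
Log2 fold change, anomaly minus normal (vertical axis), of every gene tested in 9 lists (horizontal axis), filled where the limma adjusted p was under 0.05, with a bar at the list median. The kinase and adaptor points all lie above 0, the inhibitory list is the only one with a filled point below 0 (Ptpn11), and no immunoglobulin point is filled.

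Genes of the immunoglobulin chains did not pass the test. The list holds heavy chain genes of classes other than IgG and light chain genes as well, and IgG protein was not measured. Of 12 immunoglobulin constant genes 10 were tested and 0 were called by limma (0 also at an unadjusted p under 0.05, and 0 by limma-voom), with a median log2 fold change of 2.13. In the subQ-titled anomalies alone 1 was called, Ighd, the IgD heavy chain gene, at 2.02 (limma adjusted p = 0.0232), named after its values were seen. Without 18f, 2 named genes were called, Ighd at 2.13 (0.0115) and Igha, the IgA heavy chain gene, at 3.57 (0.0480). Ighg1 had from 1.65 to 13.36 log2 CPM in the anomalies, with a median of 6.03, against 1.38 to 6.42 log2 CPM in normal tissue, and its log2 fold change was 2.85 ± 2.01 (SE, limma adjusted p = 0.280). Igkc, the kappa light chain gene, had 4.45 to 14.18 against 3.29 to 10.63 log2 CPM (2.36 ± 1.98, 0.364). The summed immunoglobulin level spanned 101 to 49172 CPM in anomaly animals and 528 to 4725 CPM in normal animals. These wide ranges leave intervals that reach both signs, so equal levels are not shown.

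Among other Fc receptors, 6 of 13 genes were tested and 1 rose, a share near the 15.3% of all genes. It was Fcrl1, an Fc receptor-like gene of B cells, which rose by 2.70 ± 0.66 (limma adjusted p = 0.00938). Fcrl1 averaged -0.52 log2 CPM in normal tissue and passed the filter through its anomaly values. Without M580 it fell under the filter, and 0 of the 3 then tested were called. Trim21, a cytosolic antibody receptor, stood at 0.08 ± 0.22 (0.789), Fcmr, the IgM receptor gene, at 1.34 ± 0.82 (0.213) and Fcrla at 1.70 ± 0.93 (0.170). Without 18f both Fcrla (2.21, 0.0326) and Fcmr (1.78, 0.0481) were called. The chains of the IgE receptor other than γ were scarce and untested, with 2 to 97 reads of Fcer1a in anomaly libraries and 4 to 48 in normal libraries, and 1 to 34 and 4 to 16 reads of Ms4a2.

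Transcripts of the FcRn partner β2-microglobulin and of its cargo albumin differed from each other in the tissue, and the proteins were not measured. B2m had 10.82 ± 0.36 log2 CPM in anomalies and 11.08 ± 0.38 log2 CPM in normal tissue (SD, n = 7 and 4, limma adjusted p = 0.466), and its difference of -0.26 became 0.17 with library totals. Alb, the albumin gene, fell by 6.38 (adjusted p = 0.000980), with -3.40 to 1.29 log2 CPM in the anomalies, against 4.46 to 6.23 log2 CPM in normal tissue. Its counts were 1 to 80 reads in anomaly libraries and 541 to 2061 in normal libraries, so the size of the fall is uncertain. The log2 ratio of Fcgrt to B2m averaged -3.33 ± 0.81 in anomalies and -2.63 ± 0.25 in normal tissue, with 5 of 7 anomaly animals below all normal animals, and was not tested.

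Marker genes of several cell types moved beside the receptors, and their part in the receptor changes was not tested. The counts here and in the next paragraph stand against the 15.3% of all genes that rose. Markers scarce in normal tissue can pass the filter through their anomaly values, as Cd5l did (-0.50 log2 CPM on average in normal tissue). A count over tested markers therefore does not describe a whole list. Of 20 macrophage markers 19 were tested and 11 rose (median 1.69), with 1155 to 7557 CPM summed in anomaly animals and 1026 to 1897 CPM in normal animals. Cd5l rose by 4.83 ± 0.83, Cx3cr1 by 3.10 ± 0.66, Ms4a7 by 2.68 ± 0.43 and C1qa by 1.69 ± 0.37 (SE, limma adjusted p = 0.00199, 0.00501, 0.00156 and 0.00616). The 3 genes used for the ratios above were not past the threshold, with Cd68 at 1.92 ± 0.72 (0.0534), Adgre1 at 1.33 ± 0.55 (0.0753) and Csf1r at 1.02 ± 0.43 (0.0787). All 3 rose with library totals (limma adjusted p = 0.0169, 0.0181 and 0.0135), where 35.2% of all genes rose. In the fat-titled anomalies alone they rose by 3.63, 2.44 and 1.67 (0.0234, 0.0219 and 0.0426), where 6.45% of all genes rose. Cd68 gained the call in 7 alternatives and did not in 17, Adgre1 in 3 and 21, and Csf1r in 4 and 20.

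Of 13 neutrophil markers 5 were tested and 2 rose, Cxcr4 by 2.62 ± 0.56 and Csf3r by 2.24 ± 0.60 (limma adjusted p = 0.00529 and 0.0135), with 51.5 to 1440 CPM summed in anomaly animals and 19.3 to 529 CPM in normal animals. Ly6g, a defining neutrophil gene, was at 0 reads in 6 of 12 libraries. S100a9 at 2.85 ± 1.41 (0.128) and S100a8 at 1.21 ± 1.21 (0.446) were tested and not past the threshold. S100a9 gained the call in 2 of 24 alternatives, without F539 (0.0405) and without the animals named with f or F (0.0307). Csf3r lost its call without M602 (0.0542). Of 10 mast cell markers 8 were tested and 1 rose, no larger a share than the 15.3% of all genes, namely Hdc (2.07 ± 0.75, 0.0483, lost in 16 of 24 alternatives), with 79.2 to 305 CPM summed in anomaly animals and 54.6 to 386 CPM in normal animals. Of 10 B and plasma cell markers 8 were tested and 2 rose, with 12.9 to 349 CPM in anomaly animals and 15.5 to 31.5 CPM in normal animals. That count was 0 with limma-voom, where 15.9% of all genes rose, and 1 without M580 (15.1%). With library totals it was 4 (35.2% of all genes rose), and in the subQ-titled anomalies alone it was 5 (16.4%). Of 12 T and NK cell markers 8 were tested and 4 rose, with 56.5 to 181 CPM in anomaly animals and 11.8 to 52.8 CPM in normal animals. Of 9 dendritic cell markers 7 were tested and 4 rose, and of 9 platelet markers 4 were tested and 2 rose. Among the dendritic markers that rose, Flt3 and Ccr7 averaged -0.32 and -0.08 log2 CPM in normal tissue and passed the filter through their anomaly values. Without M580, 3 platelet markers were tested and 1 rose.

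Markers of endothelium and adipocytes are given against the 15.3% of all genes that rose and the 23.2% that fell. All 12 endothelial markers were tested and 7 rose (median 1.29), with 1580 to 6229 CPM summed in anomaly animals and 1334 to 2579 CPM in normal animals, and 3 of 6 tested lymphatic markers rose. All 12 adipocyte markers fell (median -4.78), with 302 to 15363 CPM summed in anomaly animals and 25708 to 70353 CPM in normal animals, so the defining genes of the labelled tissue were present in every library but far lower in the anomalies. In the fat-titled anomalies alone 2 adipocyte markers fell (5.47% of all genes did) and 0 of 12 endothelial markers rose (0 also at an unadjusted limma p under 0.05), and with limma-voom 6 adipocyte markers fell (22.8%). No gene of these lists was at 0 in every library.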

How the data were processed

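RNA was sequenced from snap-frozen tissue with a lipid tissue RNA kit and an unstranded poly-A kit, per the labels' protocols. The submitters' processing notes name STAR, limma, mm10 and GRCm38. The authors deposited normalized log2 CPM values for 32774 genes and 12 libraries, with a shared floor of -6.97. Their normalization function is not given in the sources used here. In each library the linear values minus the floor were whole multiples of 1 step (100% within 0.1), read as recovered reads. Counting error alone is covered by these depths, since molecular identifiers are absent.

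The pieces of M566 were averaged. The 12955 genes whose mean over 11 animals reached 1 log2 CPM were tested with limma 3.58.1 (statmod 1.5.0, R 4.3.3), two-sided, with a mean trend, robust variances and Benjamini-Hochberg adjustment. Ratio fits subtracted a gene's log2 value first. Exact permutation used scipy 1.17.1. Of these, only the limma comparison of anomalies with normal tissue was checked on simulated counts. Scaling by totals alone shifted the median gene by 0.43, giving 35.2% of genes higher and 12.1% lower, against 15.3% and 23.2% as deposited. Gene models were GENCODE vM21 and promoters RefSeq. The members, gene lists and ratios were chosen with earlier results of these data known. Named were the members, up to 4 genes per list with the smallest adjusted p, any that passed against its list's direction, the 3 macrophage genes of the ratio and 5 genes most like each member. A few genes that this rule names are not reported here. Syk, Lyn, Fgr, Plcg2, Pik3cg, Tyrobp, Trem2, Clec4e, Dok1, Csk, the scarce receptors and Ly6g were added after their values were seen. Alternatives covered scaling, filter, prior, limma-voom, sites, pieces and each animal left out.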

Additional observations from a re-analysis of the deposited data

Results flagged for a closer look

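Of 12 sets of animals examined, 1 for each of the 6 genes in anomalies and in normal tissue, 2 held an animal far from the rest by Dixon's criterion, which flags about 1 in 20 sets by chance. Fcgr1 stood at 3.34 log2 CPM in anomaly animal M566, where the nearest other anomaly animal, M605, stood at 4.99 log2 CPM, and the gap made up 0.625 of the range of the 7 anomaly animals. Fcgr2b stood at 5.90 log2 CPM in normal animal M5, where the nearest other normal animal, M2, stood at 5.25 log2 CPM, and the gap made up 0.842 of the range of the 4 normal animals. Without M566 the log2 fold change of Fcgr1 was 2.93 (limma adjusted p = 0.000362), and without M5 that of Fcgr2b was 1.81 (0.0237).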

How the results depend on the processing

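No paired analysis was possible because the labels carry no replicate numbers shared between the groups, and the animal names in the titles are not shared either. Over 24 alternatives, the log2 fold change of Fcgr1 lay between 2.37 and 3.04, that of Fcgr4 between 3.28 and 4.14 and that of Fcer1g between 1.79 and 2.74, and each kept its call in all 24. Fcgr2b lost its call in 2, the fat-titled anomalies alone (0.99, limma adjusted p = 0.0545) and without M602. Fcgr3 lost it in 4, with the pieces of M566 as separate replicates (1.49), without the 3 animals named with f or F (1.28, adjusted p = 0.106), without F539 and without M602. Fcgrt passed in 3, in the subQ-titled anomalies alone (-1.24, adjusted p = 0.0315), without the animals named with f or F (-1.51, 0.0128) and without 18f. With each animal left out in turn, Fcgr2b lay between 1.42 and 1.81, Fcgr3 between 1.53 and 2.06, Fcgr1 between 2.38 and 2.93, Fcgr4 between 3.29 and 3.94, Fcer1g between 1.90 and 2.30 and Fcgrt between -1.18 and -0.76. The cause was not tested.

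Genes past the threshold numbered 4986 between anomalies and normal tissue, 1518 with the fat-titled anomalies alone, and 3028 (without M602) to 5817 (without 18f) with each animal left out. In the 3-group fit they numbered 1456 for fat-titled anomalies (141 to 1841 with each animal left out, the lowest without M278), and 5458 for subQ-titled anomalies (3619 to 5781, the lowest without M602). Between the sites they numbered 5, against 49 with no filter, 0 with the pieces of M566 separate, and 0 to 208 with each animal left out, the highest without M278. Relative to Fcer1g they numbered 10770, against 17524 with no filter and 10227 to 11329 with each animal left out. Relative to the macrophage genes they numbered 6756, against 2829 with the pieces separate and 2393 to 9955 with each animal left out. The limma-voom alternative was not run for these ratio fits.

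Over the other 101 named genes, 2160 of 2407 alternative values kept their side of the threshold, 190 lost the call, 49 gained it and 8 reversed. Of 26 called members and pathway genes that are named, 7 lost the call without M602, 6 in the fat-titled anomalies alone and 3 with limma-voom. The reversed values, whose genes were not past the threshold under that setting, were -0.021 for Trim21 without M278 (-0.021 to 0.17 with each animal left out), 0.17 for B2m with library totals, -0.12 for Adamts1 in the fat-titled anomalies alone, and for Inhbb 0.27 with library totals, 0.26 in the subQ-titled anomalies alone, 0.043 without M278, 0.018 without M605 and 0.059 without F539 (-0.40 to 0.059 with each animal left out). Between the sites Fcgr4 turned to 0.018 without M278 (-1.64 to 0.018 with each animal left out), and relative to the macrophage genes Fcgr2b turned to -0.034 without M580 (-0.034 to 0.55 with each animal left out). Depth limits M580 most, where genes under a few CPM rest on single reads. The counts of list members by setting were chosen after seeing the data.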
